A study of Mus musculus with 11 samples.

Results

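Transcript levels of 50 listed genes of the interferon system were followed in mouse stomach muscle and in progenitor cell lines derived from it, which stand for precursors of the interstitial cells of Cajal, the pacemaker cells of the gut wall. The list holds interferon receptors, the factors that carry their signal and genes that interferon is known to induce. It was chosen with earlier results of these data known. Of the 50 genes, 48 had a probe set that carried their symbol alone, and 47 of these were among the 13285 genes tested. Isg15 and Ifi44 are not analysed here, and Socs1 was too close to background on most arrays to be tested. Each gene was read from the probe set with the highest mean over all 11 arrays.

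The tsA58 line (2xSCS70) is 1 clone derived from the H-2Kb-tsA58 strain, in which the promoter of the class I histocompatibility gene H2-K1 drives a temperature-sensitive simian virus large T antigen. It was kept at 39.5 °C without interferon-gamma in a proliferation medium for neural stem cells (3 arrays). The tsA58 tissue is the tunica muscularis, the muscle layers, of the stomach of these mice (3 arrays). The C57BL/6J line (2xSCS2F10) is 1 clone from wild-type mice, kept at 37 °C in such a medium with 5% chick embryo extract (3 arrays), and the C57BL/6J tissue is the gastric tunica muscularis of that strain (2 arrays). Strain, transgene, clone, temperature and medium differ together between the lines and cannot be told apart. Titles call the replicates biological, but nothing states that they were separate cultures or animals, so p-values measure only the spread between these arrays, which may be technical.

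Type I interferons bind a receptor of the Ifnar1 and Ifnar2 chains, and interferon-gamma binds one of the Ifngr1 and Ifngr2 chains. The bound receptors activate Janus kinases, which phosphorylate Stat proteins. A complex that holds Stat2 and Irf9 binds the interferon-stimulated response element (ISRE), and other Stat complexes bind the gamma-activated site (GAS). The induced genes include sensors of foreign nucleic acid, proteins that block viral RNA and protein synthesis, GTPases that act on pathogen membranes, and inhibitors that end the signal.

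Promoters were taken from RefSeq (GRCm38.p6) as the 300 bases that run from 250 before to 50 after the annotated start of a gene. One was found for 40 of the 50. The ISRE core, taken as GAAA repeated after any 2 bases on either strand, stood in 16 of the 40 (40%), against 3.99% of all 27025 genes with a promoter. The GAS core, TTCNNNGAA, which reads the same on both strands, stood in 12 (30%), against 9.55% of all genes, and both cores stood in 5 (12.5%), against 0.614%. The following 6 promoters are shown. Gbp3, Ifit3, Ifit1 and Irgm2 are the called members with the largest differences between the lines among those with an ISRE core. Ly6e, Usp18, Rtp4 and Iigp1 had larger differences than these, and Oasl2 and Cmpk2 had larger ones than Irgm2. No ISRE core or no promoter was found for any of those left out. Igtp and Socs1 were added to the ones shown. The first 5 belong to members called higher in the tsA58 line, and Socs1, which was not tested, is shown for its cores alone. They read 5′ to 3′ on the strand of the gene, and capitals mark the core letters. Gbp3 (chr3:142559794-142560093, plus strand) has ISRE cores that overlap, Ifit3 (chr19:34583279-34583578, plus strand) and Ifit1 (chr19:34640639-34640938, plus strand) have 2 separate ISRE cores each, and Irgm2 (chr11:58214727-58215026, plus strand) and Igtp (chr11:58199306-58199605, plus strand) have a GAS core followed by an ISRE core. Socs1 (chr16:10785487-10785786, minus strand) has overlapping ISRE cores.
Gbp3: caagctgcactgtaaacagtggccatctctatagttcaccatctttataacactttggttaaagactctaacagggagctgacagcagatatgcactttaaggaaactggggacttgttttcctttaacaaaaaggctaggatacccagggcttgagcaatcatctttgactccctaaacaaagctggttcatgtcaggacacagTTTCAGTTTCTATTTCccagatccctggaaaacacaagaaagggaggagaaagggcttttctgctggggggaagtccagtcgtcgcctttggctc
Ifit3: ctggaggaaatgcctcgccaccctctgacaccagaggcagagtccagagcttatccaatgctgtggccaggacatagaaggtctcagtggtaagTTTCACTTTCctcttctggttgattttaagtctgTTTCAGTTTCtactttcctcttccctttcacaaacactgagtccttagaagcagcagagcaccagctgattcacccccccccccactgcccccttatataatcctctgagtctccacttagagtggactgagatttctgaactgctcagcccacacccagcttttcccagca
Ifit1: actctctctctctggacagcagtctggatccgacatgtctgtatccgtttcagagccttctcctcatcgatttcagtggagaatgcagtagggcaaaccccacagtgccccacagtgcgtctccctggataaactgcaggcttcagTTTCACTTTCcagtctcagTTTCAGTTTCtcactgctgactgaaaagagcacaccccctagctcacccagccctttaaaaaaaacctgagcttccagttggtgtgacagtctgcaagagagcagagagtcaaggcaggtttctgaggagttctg
Irgm2: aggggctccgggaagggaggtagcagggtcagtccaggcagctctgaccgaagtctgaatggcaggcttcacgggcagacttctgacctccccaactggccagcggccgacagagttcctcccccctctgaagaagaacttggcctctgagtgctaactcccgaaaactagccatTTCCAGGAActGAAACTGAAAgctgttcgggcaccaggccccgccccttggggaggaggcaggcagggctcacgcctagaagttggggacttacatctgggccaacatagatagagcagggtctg
Igtp: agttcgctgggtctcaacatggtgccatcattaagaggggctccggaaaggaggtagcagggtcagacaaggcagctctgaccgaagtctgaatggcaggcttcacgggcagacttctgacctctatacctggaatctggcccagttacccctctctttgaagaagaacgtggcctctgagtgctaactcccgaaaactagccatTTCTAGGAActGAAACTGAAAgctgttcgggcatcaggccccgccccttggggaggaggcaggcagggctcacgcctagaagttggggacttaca
Socs1: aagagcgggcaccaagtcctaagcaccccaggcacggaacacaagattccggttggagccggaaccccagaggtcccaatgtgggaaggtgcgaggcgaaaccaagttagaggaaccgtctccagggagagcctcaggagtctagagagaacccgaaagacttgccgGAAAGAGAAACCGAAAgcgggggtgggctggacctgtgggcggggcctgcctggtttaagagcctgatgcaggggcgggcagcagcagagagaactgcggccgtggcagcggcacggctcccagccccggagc
In Irgm2 the GAS core began 75 bases and the ISRE core 64 bases before the gene start, and in Igtp, on the same chromosome, they began 45 and 34 bases before it. The search reads letters only, and a match is not a measured binding site.

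Values are log2 intensities made by the authors with RMA, so a difference of 1 is 2-fold, and differences are given with their standard error. The median of all probe sets on an array lay between 4.66 and 4.84, and a level at or below it cannot be told from background. Calls required a change of at least 2-fold and an adjusted p under 0.05 (limma, Benjamini-Hochberg over all 13285 genes). Replicate arrays correlated at 0.956 to 0.991. Averaged over 17 leukocyte markers, the level lay between 4.35 and 4.67 in the tsA58 line and 4.82 and 4.94 in the C57BL/6J line, against 6.92 to 8.03 in tsA58 tissue and 6.87 to 6.98 in C57BL/6J tissue. Ptprc, the pan-leukocyte antigen CD45, stood at 2.96, 2.75 and 3.18 on the tsA58 line arrays and 3.02, 2.83 and 3.04 on those of the C57BL/6J line, below the array medians. Other leukocyte markers were detected. Of the 17, 5 lay above the median on every tsA58 line array and 6 on every C57BL/6J line array. Cd14, Cd68, Csf1r, Lyz2 and Laptm5 were among them for both lines. Group means were 8.51 (tsA58) and 9.68 (C57BL/6J) for Cd14, and 5.31 and 7.58 for Csf1r. Kit, the defining receptor of interstitial cells of Cajal, stood below the medians in both lines. On the tsA58 line arrays Kit read 3.16, 3.56 and 3.79, and on those of the C57BL/6J line 3.35, 3.57 and 3.87. Of the 3 measured markers of mature interstitial cells of Cajal, Cacna1h was also below the medians on every line array. The third, Ano1, was above them on every line array, with group means of 7.15 (tsA58) and 6.26 (C57BL/6J). The progenitor marker Cd44 was between 10.67 and 11.74 in both lines. Of the 5 listed progenitor markers, Cd44 was the 1 called higher in the line than in tissue in each strain. Kit was called lower in both strains and Igf1r in C57BL/6J, while Cd34 and Insr were called in neither. Smooth muscle markers averaged 12.39 to 12.71 in tsA58 tissue and 11.05 to 11.26 in C57BL/6J tissue.

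Almost throughout the list, interferon genes stood higher in the tsA58 line, against the C57BL/6J line. Of 47 tested members, 43 were called higher and 0 lower, where 8.38% of all tested genes were called higher and 5.77% lower. Because the list was chosen with earlier results of these data known, these shares describe it and are no independent support. The median difference of the members was 2.91, against -0.04 over all tested genes. For 45 members every tsA58 line array lay above every C57BL/6J line array, which held for 18.4% of all genes, and for 2, Ifnar1 and Ifnar2, every array lay below, as for 22% of all genes. The 4 members not called were Ifnar1, Ifnar2, Ifngr2 and Irf1. By group means, the tsA58 line had the highest level of the 4 groups for 45 of the 48 measured members, and the C57BL/6J line the lowest for 25. Ifnar1 and Ifnar2 were highest in the C57BL/6J line and Ifngr1 in tsA58 tissue.

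**Figure D1:**
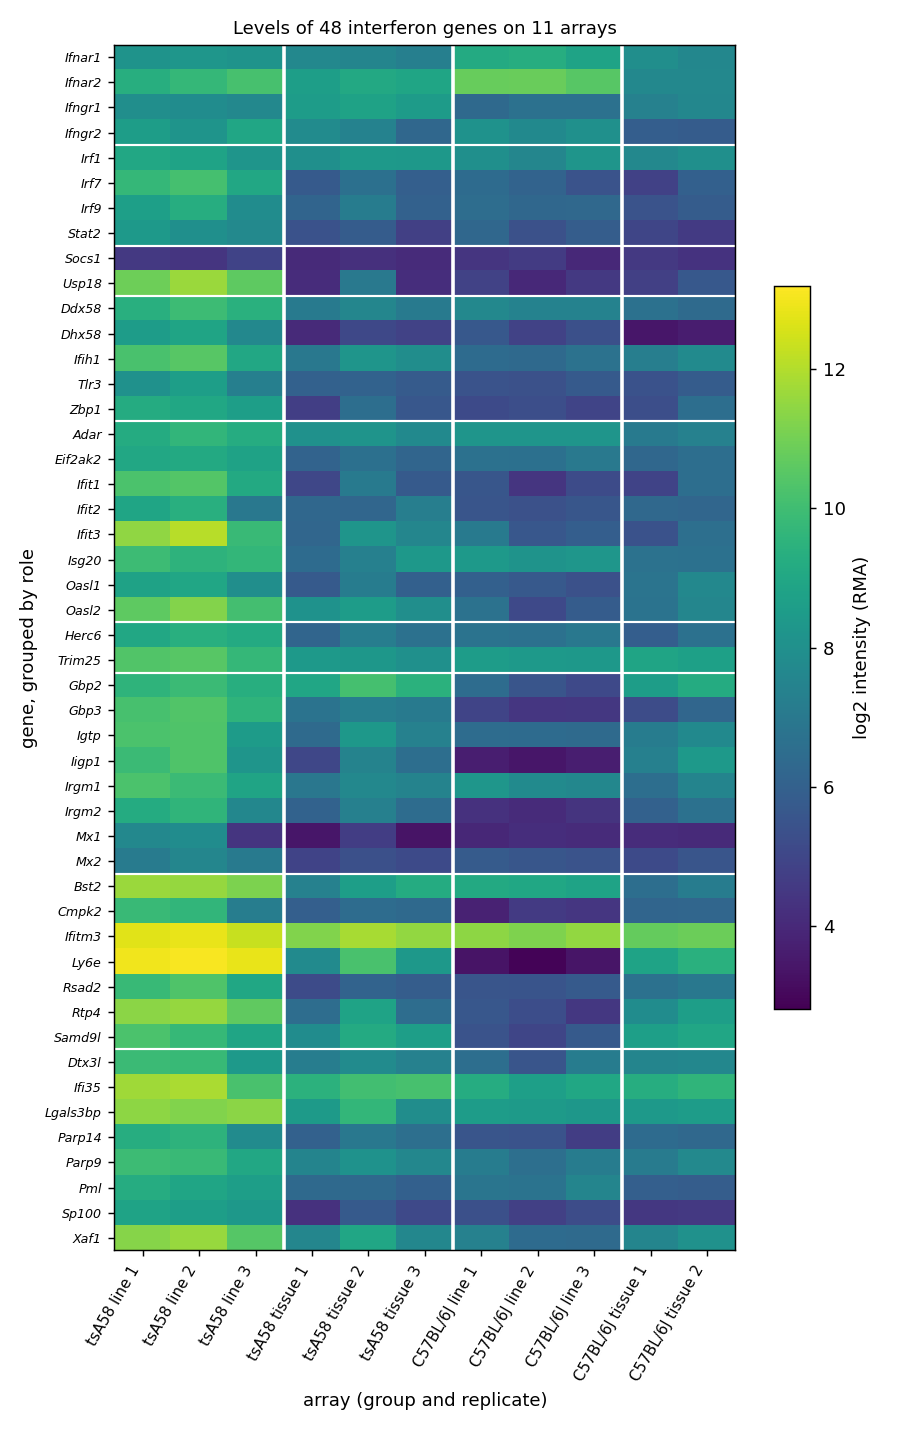
Levels (log2 intensity, colour scale) of the 48 measured members in rows, grouped by role, on the 11 arrays in columns; white lines separate groups and roles. The tsA58 line columns are brightest for most rows, with group means highest there for 45 of 48 genes.

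Of the receptor chains, Ifngr1 was called higher in the tsA58 line, Ifngr2 was higher without a call, and Ifnar1 and Ifnar2 ran the other way. Ifnar1, the first chain of the type I receptor, stood at 8.13, 8.26 and 8.13 on the tsA58 line arrays, 7.65, 7.54 and 7.28 in tsA58 tissue, 9.15, 9.27 and 8.85 on the C57BL/6J line arrays and 7.93 and 7.61 in C57BL/6J tissue. Every array of the tsA58 line lay below every array of the C57BL/6J line. The difference was -0.92 ± 0.18, adjusted p = 0.0051, which is under the 2-fold limit, and with the arrays centred on the hybridisation controls the sign turned (0.57). Ifnar2, the second chain, stood at 9.34, 9.73 and 10.16 on the tsA58 line arrays, 8.65, 9.09 and 8.92 in tsA58 tissue, 10.76, 10.82 and 10.52 on the C57BL/6J line arrays and 7.65 and 7.67 in C57BL/6J tissue. Its difference between the lines was -0.95 ± 0.22, adjusted p = 0.0117, also under 2-fold, and it too turned sign under that centring (0.54). The missing call depended on the probe set, since the other Ifnar2 probe sets gave -1.55 and -1.65, over 2-fold. The other Ifnar1 probe set gave -0.20. Both chains were higher in the C57BL/6J line than in C57BL/6J tissue, Ifnar1 by 1.32 ± 0.20, adjusted p = 0.000381 and Ifnar2 by 3.04 ± 0.25, adjusted p = 6.53e-06. In the tsA58 line against tsA58 tissue they differed by 0.69 ± 0.18 and 0.86 ± 0.22 and were not called.

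Ifngr1, the chain that binds interferon-gamma, stood at 7.96, 7.88 and 7.64 on the tsA58 line arrays, 8.54, 8.80 and 8.52 in tsA58 tissue, 6.37, 6.69 and 6.67 on the C57BL/6J line arrays and 7.35 and 7.62 in C57BL/6J tissue. It was higher in the tsA58 line than in the C57BL/6J line (1.25 ± 0.17, adjusted p = 0.00081), and the arrays of the lines did not overlap. In both strains it was below its tissue by less than 2-fold, -0.80 ± 0.17 in tsA58 and -0.91 ± 0.20 in C57BL/6J, and the C57BL/6J difference turned to 0.33 with hybridisation control centring. Ifngr2, the signalling chain, stood at 8.59, 8.18 and 8.94 on the tsA58 line arrays, 7.83, 7.43 and 6.28 in tsA58 tissue, 8.09, 7.73 and 8.02 on the C57BL/6J line arrays and 5.91 and 5.81 in C57BL/6J tissue. The lines did not overlap, but the difference of 0.62 ± 0.35 was not called (adjusted p = 0.227, 95% interval -0.15 to 1.40), and the other Ifngr2 probe set gave -0.27. It was higher in the lines than in tissue, by 1.39 ± 0.35 in tsA58 and 2.09 ± 0.39 in C57BL/6J, and the tsA58 call ended without tsA58 tissue replicate 3 (0.94).

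Of the transcription factors, 3 of 4 were called higher in the tsA58 line. Stat2, which carries the type I signal, stood at 8.43, 7.99 and 7.70 on the tsA58 line arrays, 5.42, 5.82 and 4.76 in tsA58 tissue, 6.25, 5.39 and 5.85 on the C57BL/6J line arrays and 4.98 and 4.55 in C57BL/6J tissue. Its tsA58 line arrays lay above all others, and it exceeded the C57BL/6J line by 2.21 ± 0.32, adjusted p = 0.000952. Irf9, the DNA-binding subunit of the ISRE complex, stood at 8.67, 9.27 and 7.87 on the tsA58 line arrays, 6.15, 7.18 and 6.03 in tsA58 tissue, 6.50, 6.28 and 6.30 on the C57BL/6J line arrays and 5.45 and 5.84 in C57BL/6J tissue. It too was highest on the tsA58 line arrays, 2.24 ± 0.37, adjusted p = 0.00214, with replicate 3 the lowest of them. Irf7, a factor that drives interferon-alpha genes and is itself induced, stood at 9.74, 10.14 and 9.06 on the tsA58 line arrays, 5.74, 6.65 and 5.96 in tsA58 tissue, 6.42, 6.11 and 5.44 on the C57BL/6J line arrays and 4.79 and 5.98 in C57BL/6J tissue. The gap between the lines was 3.65 ± 0.40, adjusted p = 0.000172. Irf1, a factor induced by interferon-gamma, stood at 9.02, 8.82 and 8.24 on the tsA58 line arrays, 7.97, 8.39 and 8.34 in tsA58 tissue, 8.00, 7.59 and 8.21 on the C57BL/6J line arrays and 7.64 and 7.98 in C57BL/6J tissue. Its lines did not overlap, but the difference of 0.76 ± 0.25 was under 2-fold (adjusted p = 0.0499), and in neither strain did line and tissue separate.

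**Figure D2:**
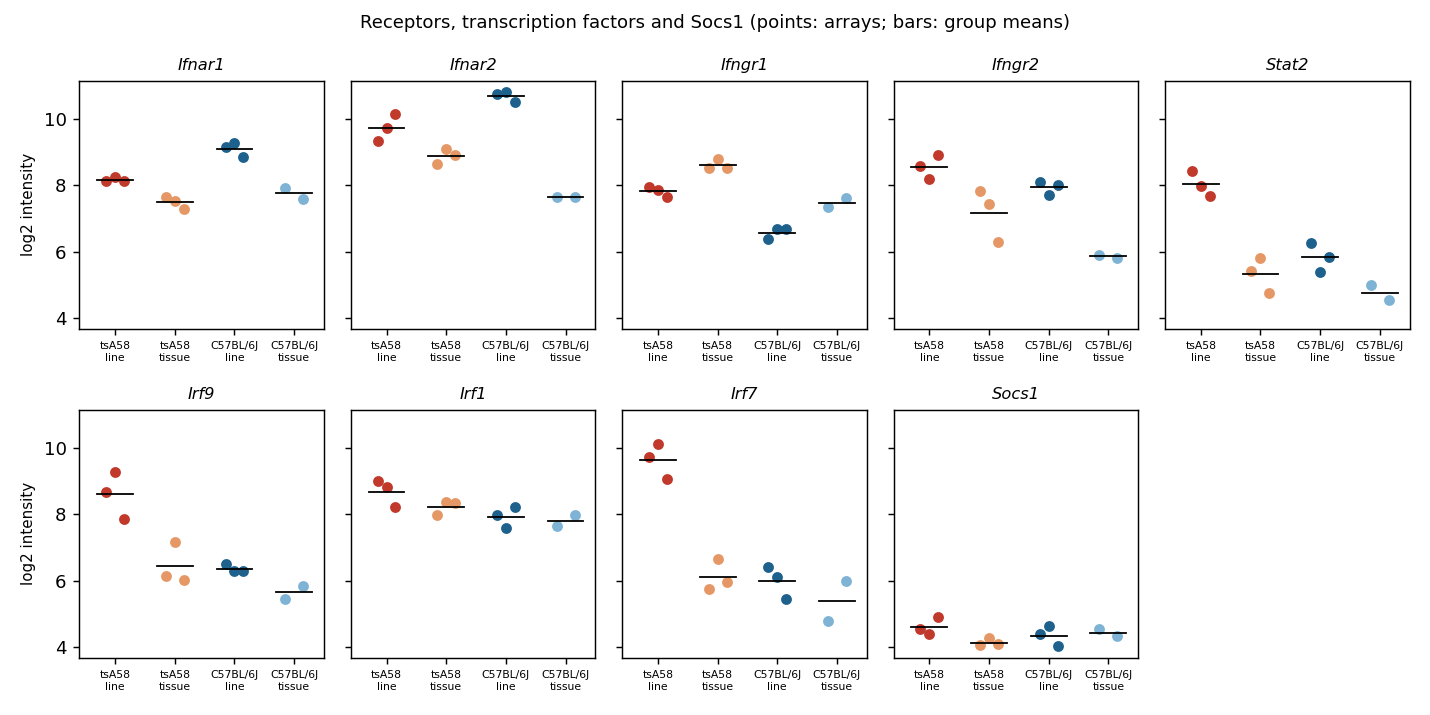
Log2 intensity of the 4 receptor chains, 4 transcription factors and Socs1 on each array (points) by group, with group means (bars). Stat2, Irf9 and Irf7 stand highest in the tsA58 line, as does Ifngr2, while Ifnar1 and Ifnar2 stand highest in the C57BL/6J line, Ifngr1 in tsA58 tissue, and Socs1 stays between 4.01 and 4.90.

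The inhibitors of the signal were unlike each other. Usp18, which removes Isg15 from proteins and blocks the type I receptor, stood at 10.90, 11.64 and 10.61 on the tsA58 line arrays, 4.12, 7.01 and 4.16 in tsA58 tissue, 4.86, 4.02 and 4.52 on the C57BL/6J line arrays and 4.75 and 5.67 in C57BL/6J tissue. The tsA58 line exceeded the C57BL/6J line by 6.58 ± 0.67, adjusted p = 0.000108, and its lowest array (10.61) lay above the highest of any other group (7.01, on tsA58 tissue replicate 2). The C57BL/6J line lay around the array medians, so the size of the difference is limited by background. Socs1, which inhibits Janus kinases, stood at 4.53, 4.40 and 4.90 on the tsA58 line arrays, 4.05, 4.25 and 4.07 in tsA58 tissue, 4.39, 4.62 and 4.01 on the C57BL/6J line arrays and 4.53 and 4.33 in C57BL/6J tissue, near or below the medians in all groups. It was not detectable by this probe set on most arrays, and no difference was tested.

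The 12 called members with the largest differences between the lines came from most of the effector classes. Ly6e, a lipid-anchored surface protein, stood at 12.96, 13.10 and 12.84 on the tsA58 line arrays, 7.76, 10.22 and 8.36 in tsA58 tissue, 3.35, 2.88 and 3.37 on the C57BL/6J line arrays and 8.84 and 9.41 in C57BL/6J tissue. The difference between the lines was 9.76 ± 0.50, adjusted p = 1.5e-06, and all C57BL/6J line arrays lay below the array medians, so its size is limited by background. The other Ly6e probe set gave 3.84 between the lines and -0.30 between the C57BL/6J line and its tissue, and the one used is of a type whose probes match several transcripts. Rtp4, a receptor transporter, stood at 11.41, 11.56 and 10.65 on the tsA58 line arrays, 6.53, 8.84 and 6.53 in tsA58 tissue, 5.62, 5.24 and 4.47 on the C57BL/6J line arrays and 7.84 and 8.64 in C57BL/6J tissue. The lines differed by 6.10 ± 0.58, adjusted p = 7.16e-05, and both tissues lay between them. C57BL/6J line replicate 3 lay below its array median. The other Rtp4 probe set gave 2.78 between the lines. On it tsA58 tissue (3.42) and C57BL/6J tissue (3.36) stood close to the C57BL/6J line (3.33), all below the array medians. Cmpk2, a mitochondrial nucleotide kinase, stood at 9.86, 9.64 and 7.20 on the tsA58 line arrays, 5.97, 6.46 and 6.35 in tsA58 tissue, 3.79, 4.57 and 4.43 on the C57BL/6J line arrays and 6.18 and 6.23 in C57BL/6J tissue. Replicate 3 of the tsA58 line was well under the others but above every other array, and the lines differed by 4.64 ± 0.57, adjusted p = 0.000349. All C57BL/6J line arrays of Cmpk2 lay below the array medians, so the size is limited by background. Samd9l, a restriction factor of poxviruses, stood at 10.25, 9.77 and 8.92 on the tsA58 line arrays, 7.85, 9.16 and 8.64 in tsA58 tissue, 5.45, 4.95 and 5.75 on the C57BL/6J line arrays and 8.69 and 8.95 in C57BL/6J tissue. The lines differed by 4.26 ± 0.39, adjusted p = 6.11e-05, while the tsA58 line overlapped its tissue.

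Among the GTPases all 8 tested members were higher in the tsA58 line. Iigp1, an immunity-related GTPase of parasite vacuoles, stood at 9.90, 10.33 and 8.21 on the tsA58 line arrays, 5.01, 7.46 and 6.57 in tsA58 tissue, 3.66, 3.43 and 3.66 on the C57BL/6J line arrays and 7.32 and 8.40 in C57BL/6J tissue. The difference between the lines was 5.90 ± 0.64, adjusted p = 0.000164, and the C57BL/6J line lay below the array medians. Gbp3, a guanylate-binding protein, stood at 10.18, 10.37 and 9.54 on the tsA58 line arrays, 6.76, 7.24 and 7.03 in tsA58 tissue, 4.92, 4.45 and 4.49 on the C57BL/6J line arrays and 5.20 and 6.24 in C57BL/6J tissue. Its lines differed by 5.41 ± 0.30, adjusted p = 2.57e-06 with little spread inside either. Only 1 C57BL/6J line array lay above its array median, so the size and the spread there are limited by background. Irgm2, a regulator of the immunity-related GTPases, stood at 9.22, 9.60 and 7.63 on the tsA58 line arrays, 6.07, 7.31 and 6.48 in tsA58 tissue, 4.29, 4.09 and 4.37 on the C57BL/6J line arrays and 6.04 and 6.69 in C57BL/6J tissue. The lines differed by 4.57 ± 0.47, adjusted p = 0.000117, and all C57BL/6J line arrays lay below the array medians. The other GTPases gave 3.90 ± 0.39 for Gbp2, 3.28 ± 0.53 for Igtp, 1.76 ± 0.38 for Irgm1 and 1.66 ± 0.21 for Mx2. Mx1, an inhibitor of influenza virus, gave 2.58 ± 0.75, adjusted p = 0.0313, and it rested on unequal arrays, 7.65, 7.86 and 4.42 in the tsA58 line against 3.97, 4.15 and 4.06 in the C57BL/6J line. Mx1 was above the array median on 2 tsA58 line arrays and on 0 others, so it entered the test only through the group where it is high. Its difference is therefore no support, and without it 42 of 46 members were called higher. Leaving out any 1 of 5 line arrays, all but tsA58 line replicate 3, ended its call, with adjusted p between 0.0755 and 0.121.

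The RNA-directed effectors were called higher in 8 of 8. Ifit3, a member of the Ifit family that binds viral RNA, stood at 11.45, 12.09 and 9.85 on the tsA58 line arrays, 6.24, 8.21 and 7.59 in tsA58 tissue, 7.08, 5.62 and 5.91 on the C57BL/6J line arrays and 5.44 and 6.59 in C57BL/6J tissue. The lines differed by 4.93 ± 0.66, adjusted p = 0.000606 and did not overlap. Ifit1, which recognises RNA caps that lack a methyl group, stood at 10.27, 10.42 and 9.11 on the tsA58 line arrays, 5.00, 7.10 and 5.73 in tsA58 tissue, 5.57, 4.39 and 5.18 on the C57BL/6J line arrays and 4.89 and 6.54 in C57BL/6J tissue, a difference between the lines of 4.89 ± 0.60, adjusted p = 0.000349. Oasl2, of the oligoadenylate synthetase family, stood at 10.62, 11.29 and 10.10 on the tsA58 line arrays, 8.11, 8.55 and 7.92 in tsA58 tissue, 6.72, 5.08 and 5.84 on the C57BL/6J line arrays and 6.76 and 7.55 in C57BL/6J tissue. The lines differed by 4.79 ± 0.43, adjusted p = 5.4e-05, and here the C57BL/6J line was the lowest group. The rest of the class gave 2.91 ± 0.51 for Ifit2, 2.87 ± 0.41 for Oasl1, 2.20 ± 0.19 for Eif2ak2 (the kinase PKR), 1.44 ± 0.38 for the exonuclease Isg20 and 1.14 ± 0.19 for the RNA editing enzyme Adar. The last 2 were the least certain: Isg20 lost its call without any of C57BL/6J line replicates 1, 2 and 3 or tsA58 line replicate 1 (adjusted p 0.0526 to 0.0720), and Adar came to 0.997 without tsA58 line replicate 2.

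**Figure D3:**
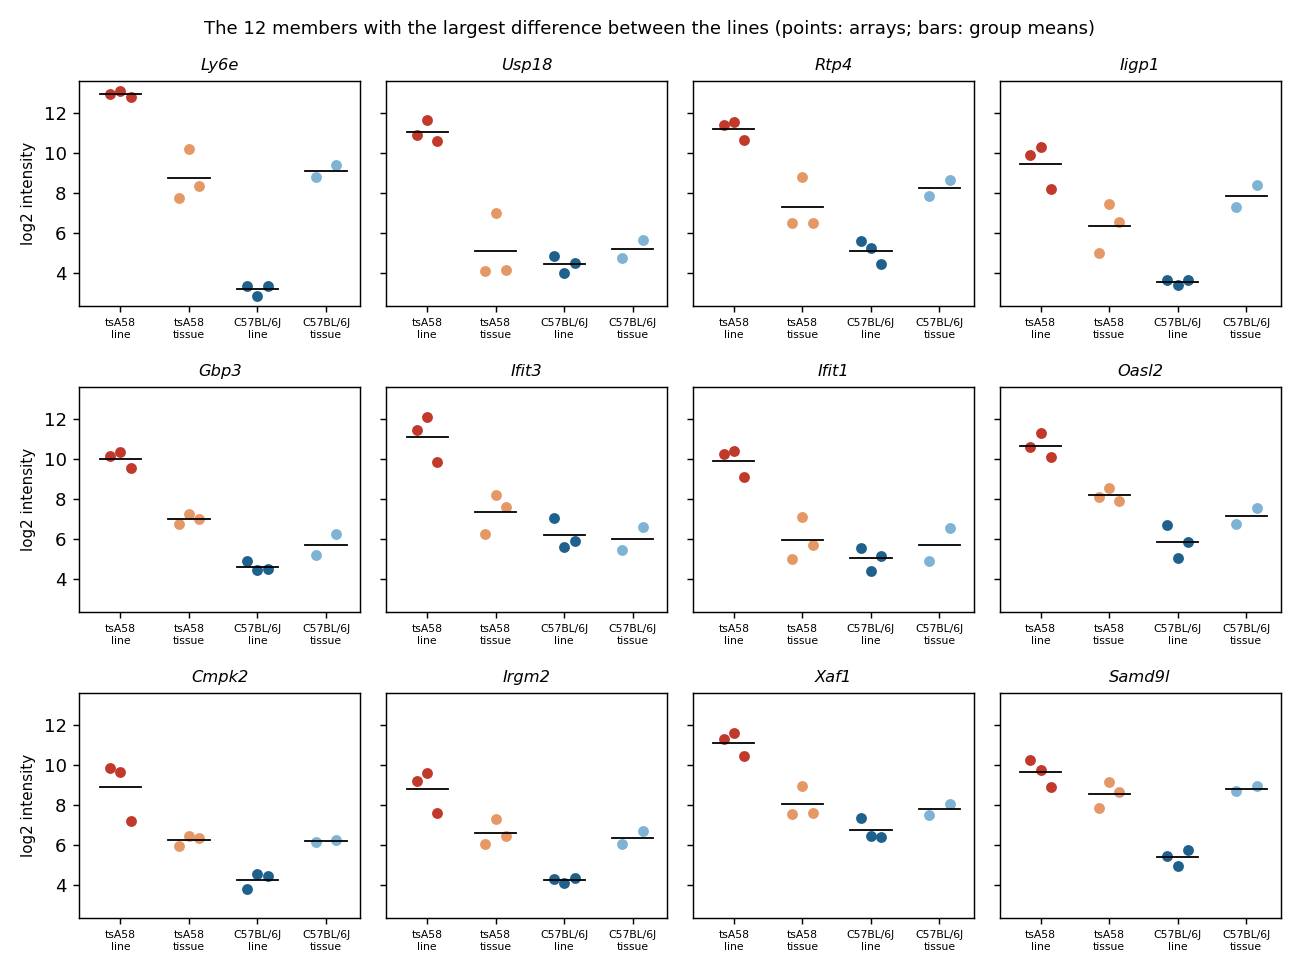
Log2 intensity on each array (points) by group, with group means (bars), for the 12 called members with the largest differences between the lines. All 3 tsA58 line arrays stand above all 3 C57BL/6J line arrays in every panel, and Ly6e spans 2.88 to 13.10.

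The remaining classes were called higher as a whole. All 5 nucleic acid sensors were higher, from 2.07 ± 0.22 for Ddx58 (RIG-I) to 3.81 ± 0.43 for Zbp1, with 3.40 ± 0.40 for Ifih1 (MDA5), 3.10 ± 0.36 for Dhx58 (LGP2) and 2.47 ± 0.29 for the receptor Tlr3. The ubiquitin ligases followed the same direction. Herc6, which attaches Isg15 in mice, and Trim25, which acts on RIG-I, gave 2.37 ± 0.27 and 1.75 ± 0.22. Xaf1, an antagonist of apoptosis inhibitors and the 11th largest, stood at 11.31, 11.59 and 10.45 on the tsA58 line arrays, 7.58, 8.94 and 7.63 in tsA58 tissue, 7.38, 6.44 and 6.38 on the C57BL/6J line arrays and 7.53 and 8.07 in C57BL/6J tissue, a difference of 4.38 ± 0.43, adjusted p = 8.87e-05. The tsA58 line stood clear of the other groups there too. Effectors at membranes and in the nucleus were higher as well. Rsad2 (viperin), Bst2 (tetherin) and Ifitm3 (a block to virus fusion) gave 4.11 ± 0.33, 2.45 ± 0.39 and 1.25 ± 0.21. The ADP-ribosylation proteins Parp9, Parp14 and Dtx3l gave 2.62 ± 0.30, 3.64 ± 0.43 and 2.96 ± 0.45, and the nuclear body proteins Pml and Sp100 1.87 ± 0.24 and 3.47 ± 0.33. Ifi35 and Lgals3bp gave 2.30 ± 0.39 and 2.92 ± 0.36. Of the 43 called members, 21 had another probe set, and all of these had the same sign in this comparison.

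Genes of the pathway outside the list were read from 81 further names, of which 57 were tested. Between the lines 29 were called higher and 2 lower, of which 25 and 2 were among 33 other induced genes. Those called higher included Ifi27l2a (5.83 ± 0.46), Trim30a (5.44 ± 0.44) and the chemokine Ccl5 (4.33 ± 0.32). Oas3, Nlrc5 and Cxcl11 were above the array median in the tsA58 line alone and so entered the test only through it. Their differences are no support, and without them 26 of 54 were called higher. The 2 lower were Ifitm1 (-2.03 ± 0.36) and Plscr1 (-1.02 ± 0.20, turning to 0.47 with hybridisation control centring). Among the signalling machinery the share of calls was near that of all tested genes (8.38% higher and 5.77% lower). Of 10 receptor-proximal factors 2 were called higher, Nlrc5, the activator of class I genes, and Stat3 (1.02 ± 0.17, but -0.15 as the mean of its probe sets and -0.80 with its most variable one). The kinases Jak1 (-0.46 ± 0.18), Jak2 (-0.50 ± 0.22) and Tyk2 (-0.84 ± 0.16) were not called, nor were any of 5 other feedback genes, and 1 of 8 sensors and adaptors was, Samhd1 (1.25 ± 0.29).

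Transcripts of the interferons themselves lay near background. Ifnb1 stood at 4.20, 4.18 and 4.72 in the tsA58 line and 3.96, 4.12 and 3.78 in the C57BL/6J line, and Ifng at 3.04, 2.85 and 3.11 and 2.85, 3.11 and 3.07 in the same lines, so no production was detectable by these probe sets. The exception among the listed ligands was Ifnz, a mouse type I interferon, with 6.93, 7.13 and 6.65 in the tsA58 line, against 4.98, 4.85 and 5.09 in the C57BL/6J line, a difference of 1.93 ± 0.21, adjusted p = 0.000148. H2-K1, whose promoter drives the transgene, stood at 12.60, 13.07 and 12.29 on the tsA58 line arrays, 9.59, 11.11 and 10.19 in tsA58 tissue, 9.49, 8.98 and 8.89 on the C57BL/6J line arrays and 8.98 and 9.49 in C57BL/6J tissue. The lines differed by 3.53 ± 0.37, adjusted p = 0.000117 and did not overlap, and the other H2-K1 probe sets gave 1.80 to 4.21. All 4 of its probe sets are of a type with probes that also match other transcripts, and class I genes resemble each other.

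The tsA58 line also exceeded its own source tissue. Of 47 members, 42 were called higher and 0 lower, where 12.8% of all tested genes were called higher and 18.9% lower. The median difference of the members was 2.34, against -1.30e-04 over all genes. Mx1 was among the 42, and since it entered the test only through the tsA58 line, its difference is no support here either. In bulk samples, fewer cells of a type and less RNA per cell cannot be told apart. Usp18 (5.95 ± 0.67), Ly6e (4.19 ± 0.50), Ifit1 (3.99 ± 0.60) and Rsad2 (3.99 ± 0.33) had the largest differences. For Usp18, tsA58 tissue replicates 1 and 3 (4.12 and 4.16) lay below the array medians, while replicate 2 stood at 7.01. Its size is therefore limited by background and rests on unequal tissue arrays. Those not called were Ifnar1, Ifnar2 and Ifngr1, given above, Irf1 (0.46 ± 0.25) and Gbp2 (0.10 ± 0.39), which was as high in tsA58 tissue as in the line (9.57, 9.90 and 9.34 in the line, 8.95, 10.13 and 9.44 in tissue). Samd9l was called narrowly (1.10 ± 0.39, adjusted p = 0.0401), and without tsA58 line replicate 1 it came to 0.79 (adjusted p = 0.149).

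Between the C57BL/6J line and its tissue the share of calls was near that of all tested genes, and its split into higher and lower changed with the scaling. Of 47 members, 8 were called higher and 11 lower, where 17.5% and 16.6% of all tested genes were (6 and 16 with cyclic loess, 17 and 5 with hybridisation control centring). The median of the members was -0.36, against 0.12 over all genes. The lower ones were Ly6e (-5.92 ± 0.56), Iigp1 (-4.28 ± 0.72), Samd9l (-3.44 ± 0.44), Gbp2 (-3.19 ± 0.43), Rtp4 (-3.13 ± 0.65), Irgm2 (-2.12 ± 0.53), Cmpk2 (-1.94 ± 0.64), Oasl1 (-1.54 ± 0.45), Oasl2 (-1.28 ± 0.48), Rsad2 (-1.20 ± 0.36) and Gbp3 (-1.10 ± 0.34), although Rsad2 and Gbp3 turned to 0.03 and 0.13 with hybridisation control centring. The higher ones were the receptor chains Ifnar2, Ifnar1 and Ifngr2, given above, and Bst2 (2.12 ± 0.44), Dhx58 (1.74 ± 0.40), Isg20 (1.58 ± 0.42), Pml (1.15 ± 0.27) and Stat2 (1.07 ± 0.36). Of these 19, 12 had another probe set, and in 10 it had the same sign. The other value was at least 2-fold for Gbp2 (-3.24), Iigp1 (-2.38), Ifnar2 (2.65 and 2.25) and Stat2 (2.10). It was under 2-fold for Ly6e (-0.30), Rtp4 (-0.04), Rsad2 (-0.16 and -0.47), Ifnar1 (0.25), Ifngr2 (0.67) and Dhx58 (0.52). The exceptions in sign were Cmpk2 (0.04 on the other) and Pml (-0.25 on 1 of the other probe sets). Of the 19, Ly6e, Iigp1, Samd9l, Gbp2, Rtp4, Ifnar2, Ifngr2 and Bst2 were called under every alternative run, and without C57BL/6J tissue replicate 2 the count was 12. Of 16 tested leukocyte markers, 12 were called lower in the line than in tissue in tsA58 and 13 in C57BL/6J, while Cd14 was called higher in both (1.73 ± 0.35 in tsA58, 2.93 ± 0.40 in C57BL/6J) and Cd68 in C57BL/6J (2.05 ± 0.43), and their part in these differences was not tested.

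**Figure D4:**
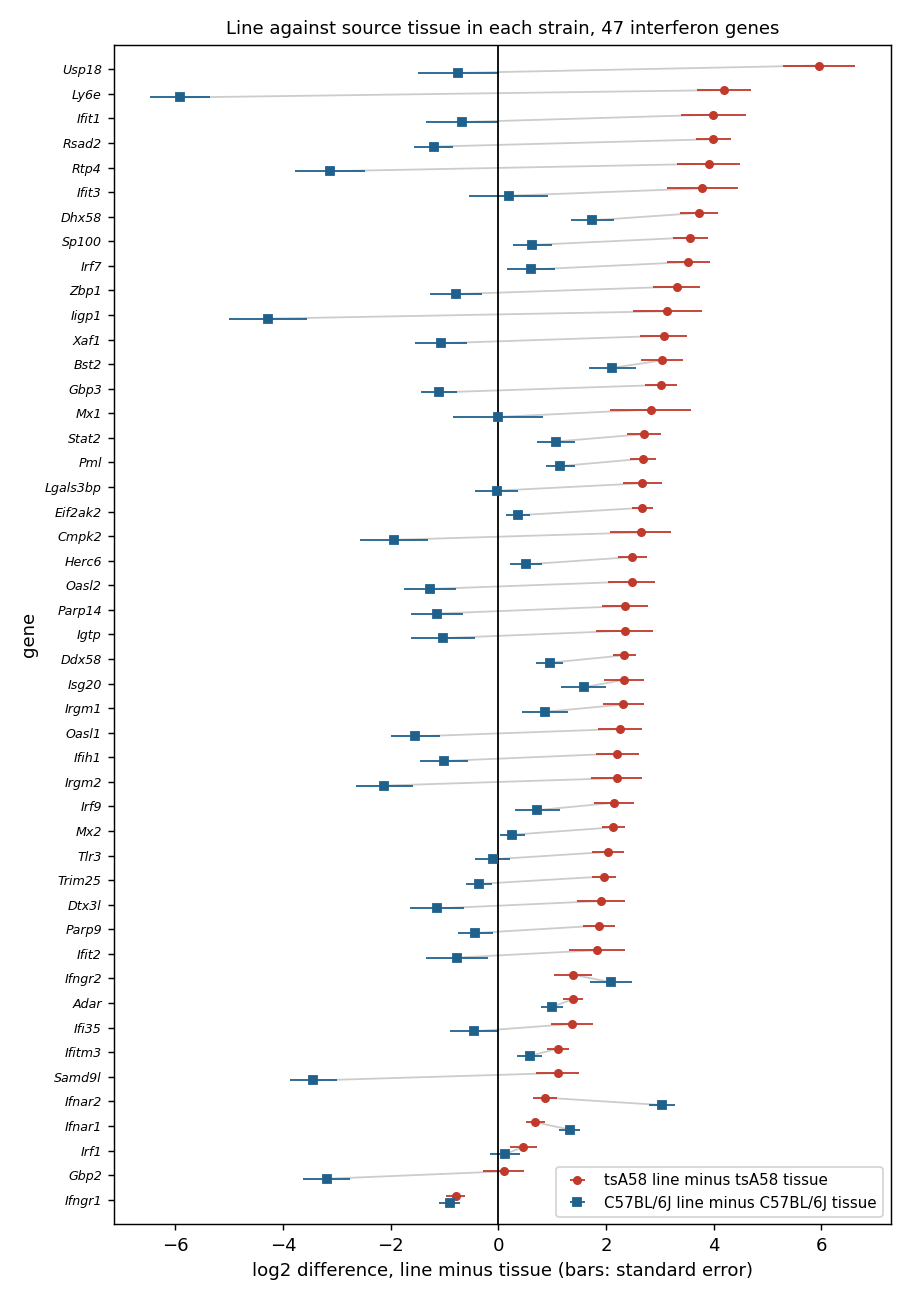
Log2 difference of line minus tissue for the 47 tested members, tsA58 (red circles) above C57BL/6J (blue squares) in each row, with standard errors. The tsA58 changes lie right of 0 for 46 genes, while the C57BL/6J changes spread from -5.92 for Ly6e to 3.04 for Ifnar2.

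The change from tissue to line was tested for a difference between strains. Of 47 members, 35 had a larger tsA58 change and 1 a smaller one, where 7.3% and 13% of all tested genes did, and the median was 2.70 against -0.18. The printed Ly6e value was 10.11 ± 0.75, adjusted p = 5.51e-05, but its other probe set gave 4.19, and on the probe set used the C57BL/6J line lay below the array medians, as it did for 6 of the 48 measured members, so its size is limited by background. Other large values were those of Iigp1 (7.41 ± 0.96), Rtp4 (7.04 ± 0.87) and Usp18 (6.70 ± 1.01). The other probe set gave 5.07 for Iigp1 and 2.73 for Rtp4. All C57BL/6J line arrays of Iigp1 lay below the array medians. Usp18 lay above the median on only 1 array each of the C57BL/6J line, tsA58 tissue and C57BL/6J tissue. The sizes for Iigp1 and Usp18 are therefore limited by background too. The smaller one was Ifnar2 (-2.18 ± 0.33, adjusted p = 0.00197). The 11 not called were Adar, Bst2, Ifitm3, Ifnar1, Ifngr1, Ifngr2, Irf1, Irf9, Irgm1, Isg20 and Mx1. With hybridisation control centring 15 members were called, all with a larger tsA58 change. Of the 36, 14 were called under every alternative run, and the count without 1 array lay between 29 and 39. The comparisons share arrays, so this test and those above are not independent of each other.

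Between the tissues the share of calls was near that of all tested genes. Of 47 members, 5 were called higher in tsA58 tissue and 0 lower, against 9.56% and 3.21% of all tested genes, with a median of 0.31 against 0.18. They were Bst2 (1.52 ± 0.44), Ifngr2 (1.32 ± 0.39), Gbp3 (1.29 ± 0.34), Ifnar2 (1.23 ± 0.25) and Ifngr1 (1.14 ± 0.20), and Ly6e (-0.34 ± 0.56), Iigp1 (-1.51 ± 0.72) and Usp18 (-0.11 ± 0.75) were not called. Another probe set of Ifngr2 gave -0.29. None of the 5 was called under every alternative run, and the count depended on the scaling, with 1 higher and 1 lower after quantile normalisation, 2 and 1 with cyclic loess, and 43 and 0 with hybridisation control centring, where the median of all genes stood at 2.30. Without C57BL/6J tissue replicate 1 the count was 1 and without replicate 2 it was 2. Without tsA58 tissue replicate 2 it was 2 higher and 4 lower, and without tsA58 tissue replicate 3 it was 3 higher.

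Within groups the interferon genes often moved together from array to array. Replicate 3 of the tsA58 line was the lowest of its group for 39 of 47 members, against 46.9% of all genes, with a median difference of -0.84 from the mean of the other replicates, against -0.09 over all genes. The largest gaps were in Mx1 (-3.33), Cmpk2 (-2.54), Ifit2 (-2.16) and Ifit3 (-1.92), while Ifnar2 (0.63) and Ifngr2 (0.55) were higher in it. On that array the actin 3′ minus 5′ signal was 0.05, against 0.51 and 0.85 on replicates 1 and 2, and the smooth muscle markers averaged 6.93, against 5.97 and 5.54. The actin signal also differed between the strains. It was 0.41 to 0.47 in tsA58 tissue, 0.99 to 1.04 in the C57BL/6J line and 0.84 to 1.02 in C57BL/6J tissue. Replicate 2 of tsA58 tissue was the highest of its group for 39 of 47 members, against 28.8% of all genes, by 0.59 in the median. The largest gaps there were in Usp18 (2.87), Rtp4 (2.31) and Ly6e (2.16), and the leukocyte markers averaged 8.03 on that array, against 6.92 and 7.14 on replicates 1 and 3. The part of these measures in the spread, or of the actin signal in the comparisons between strains, was not tested. The C57BL/6J groups showed this too, with smaller medians than these 2 arrays. Tissue replicate 2 was the higher array for 37 of 47 members (51.1% of all genes), by 0.34 in the median. Line replicate 1 was the highest for 25 (25.0% of all genes) and line replicate 2 the lowest for 28 (37.1%), with medians of 0.20 and -0.20. An alternative chosen after seeing the data left out tsA58 line replicate 3 and tsA58 tissue replicate 2 together. With it the counts were 44 members called between the lines and 42 between the tsA58 line and its tissue.

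**Figure D5:**
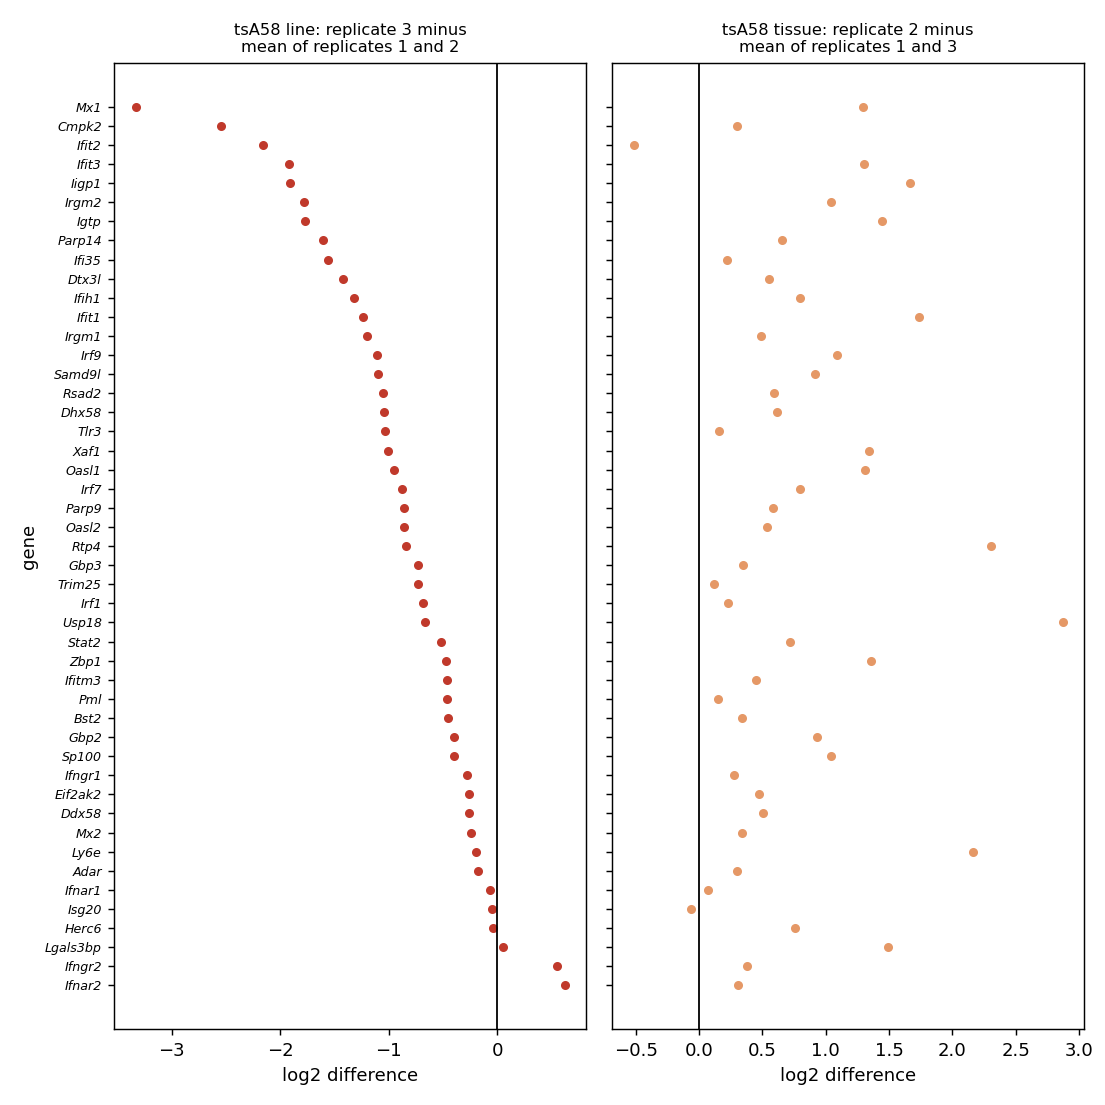
Log2 difference of 1 array from the mean of the other replicates of its group for each of the 47 tested members, for tsA58 line replicate 3 (left) and tsA58 tissue replicate 2 (right), in the order of the left panel. Most points lie left of 0 on the left and right of 0 on the right, with Mx1 at -3.33 and Usp18 at 2.87 the farthest out.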

How the data were processed

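The files hold 1 value per probe set for each of 11 arrays, deposited by the authors as log2 intensities made with RMA, per the submitters' processing notes, which name no version. Per the labels' protocols, about 50 ng of RNA went through 2 rounds of amplification. RMA makes the arrays alike in distribution, so differences are relative to the bulk of transcripts. The number of arrays limits the precision.

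Probe sets were named by the platform annotation when they carried 1 symbol (34945 of 45101; 932 carried several and 9160 none). A gene took its probe set with the highest mean, and 13285 of 18193 genes, above the array median on at least 2 arrays, were tested. limma 3.58.1 in R 4.3.3 fitted 4 group means to all arrays (7 residual and 3.49 prior degrees of freedom) and was tested on simulated data. Alternatives covered the filter, normalisation, probe set choice, variance model, replicate block and left-out arrays. Array values are printed for the receptors, Stat2, Irf9, Irf1, Irf7, Usp18, Socs1, H2-K1 and the 12 called members with the largest differences between the lines. The members and lists were chosen with earlier results of these data known. Same-numbered arrays of different groups did not deviate together: in 15 pairs the correlation ran from -0.16 to 0.25, with 1 over 0.1.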

Additional observations from a re-analysis of the deposited data

Results flagged for a closer look

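The change between line and source tissue differed between the strains, by the interaction term of the limma fit, for 36 of 47 tested members. Values are the tsA58 change minus the C57BL/6J change in log2 units, with the standard error, and adjusted p lay between 5.51e-05 and 0.0481. Ifnar2 (-2.18 ± 0.33), a chain of the type I receptor, was the 1 with a negative difference. Among signalling factors the difference was called for Irf7 (2.92 ± 0.60) and Stat2 (1.64 ± 0.48). The feedback inhibitor called was Usp18 (6.70 ± 1.01), a value whose size is limited by background. The nucleic acid sensors called were Ddx58 (1.39 ± 0.33), Dhx58 (1.98 ± 0.53), Ifih1 (3.22 ± 0.60), Tlr3 (2.14 ± 0.44) and Zbp1 (4.10 ± 0.65). The RNA-directed effectors called were Eif2ak2 (2.31 ± 0.29), Ifit1 (4.66 ± 0.90), Ifit2 (2.61 ± 0.77), Ifit3 (3.60 ± 0.99), Oasl1 (3.80 ± 0.61) and Oasl2 (3.75 ± 0.64). In the ubiquitin system the values were Herc6 (1.98 ± 0.41) and Trim25 (2.32 ± 0.33). The GTPases called were Gbp2 (3.29 ± 0.58), Gbp3 (4.13 ± 0.46), Igtp (3.37 ± 0.79), Iigp1 (7.41 ± 0.96), Irgm2 (4.31 ± 0.71) and Mx2 (1.88 ± 0.31). The other Iigp1 probe set gave 5.07. Membrane and enzyme effectors called were Cmpk2 (4.58 ± 0.85), Ly6e (10.11 ± 0.75, against 4.19 on its other probe set), Rsad2 (5.19 ± 0.49), Rtp4 (7.04 ± 0.87) and Samd9l (4.53 ± 0.59). The nuclear and other induced genes called were Dtx3l (3.05 ± 0.67), Ifi35 (1.82 ± 0.59), Lgals3bp (2.70 ± 0.53), Parp14 (3.49 ± 0.65), Parp9 (2.30 ± 0.45), Pml (1.54 ± 0.36), Sp100 (2.93 ± 0.49) and Xaf1 (4.13 ± 0.65). Each tsA58 change was tested with 3 line and 3 tissue arrays and each C57BL/6J change with 3 and 2. How far the calls depend on the processing is given with the alternatives.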

How the results depend on the processing

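Between the lines, 43 members were called, 41 to 44 without 1 array, and 40 of the 43 calls held in every alternative (exceptions Adar, Isg20 and Mx1). Between the tsA58 line and its tissue the count was 42, 39 to 42 without 1 array, with 37 held. The C57BL/6J line against its tissue gave 19, and 12 to 17 without 1 array (12 without C57BL/6J tissue replicate 2), with 8 held. The replicate block gave 10 higher and 9 lower there, and leaving out tsA58 line replicate 3 and tsA58 tissue replicate 2 together, an alternative chosen after seeing the data, 8 and 16. The tissues gave 5, with 2 after quantile normalisation, 3 with cyclic loess, 43 with hybridisation control centring, 2 with only the groups of the comparison, 3 with the replicate block, 1 to 6 without 1 array, and 8 without those 2 arrays together (3 higher and 5 lower). The difference of differences gave 36, 29 to 39 without 1 array and 15 with hybridisation control centring, with 14 held. The replicate block gave 43, 41 and 33 for the lines, the tsA58 line against its tissue and the difference of differences.

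Centring on the hybridisation controls put the median of all genes at 1.45 between the lines, 0.60 for the tsA58 line against tissue, 1.35 for the C57BL/6J line against tissue, 2.30 between tissues and -0.82 for the difference of differences. With it, signs turned between the lines for Ifnar1 (0.57), Ifnar2 (0.54) and Plscr1 (0.47), in the C57BL/6J line against tissue for Gbp3 (0.13), Ifi30 (0.044), Ifngr1 (0.33), Irf8 (0.11) and Rsad2 (0.028), between tissues for Gbp7 (0.23) and Ifnar1 (1.84), and in the difference of differences for Ifngr1 (-0.53) and Irf1 (-0.30). Stat3 between the lines came to -0.15 as the mean of its probe sets and -0.80 with the most variable one, and the difference of differences of Ifnar1 to 0.10 as the mean. Irf1 in the C57BL/6J line against tissue came to -0.032 after quantile normalisation, -0.18 with cyclic loess, and -0.046 to 0.295 without 1 array. The difference of differences of Ifngr1 came to -0.023 to 0.244 without 1 array, the lowest without C57BL/6J tissue replicate 2. The cause was not tested. The hybridisation control signal itself averaged 7.93 to 8.26 in the tsA58 line, 7.52 to 9.66 in tsA58 tissue, 9.33 to 9.90 in the C57BL/6J line and 10.77 to 10.96 in C57BL/6J tissue. Levels near the array median, in the C57BL/6J line above all, bound how low a value can read.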
